A study of Mus musculus with 6 samples.

Results

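Cd28 and 8 further genes of the T cell receptor complex and its signalling (Cd3d, Cd3e, Cd3g, Lck, Lat, Cd2, Cd5 and Trat1) were followed in dendritic cells (DCs) sorted from mice. They were chosen by symbol in the array annotation. Of these 9 genes 8 had a probe set naming them alone and were measured among 12393 genes in all, and Lck was not analysed here. The cells were CD11c-positive conventional DCs, antigen-presenting cells of the immune system, from mice of the inbred BALB/c strain, and the labels give no age, treatment or genetic change. Spleen and lymph nodes were each represented by 3 Affymetrix arrays of total RNA, and the labels do not say whether arrays came from separate animals or pools. The p-values thus reflect array-to-array spread alone, and that spread may be technical.

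The T cell receptor recognises antigen but has no signalling tail of its own. The CD3 delta, epsilon, gamma and zeta chains carry the signal into the cell, where the kinase LCK phosphorylates them and the adaptor LAT gathers the downstream enzymes. CD28 is the costimulatory receptor that binds CD80 and CD86 on antigen-presenting cells, and it has also been described on plasma cells and plasmacytoid DCs. CD2 is an adhesion receptor for CD48 in mice, CD5 dampens receptor signalling, and TRAT1 is an adaptor associated with the receptor. Conventional DCs are the partners of T cells and are not known for the CD3 chains.

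Array medians lay between 39.4 and 41.3 intensity units. Over all probe sets the log2 values of arrays from different groups correlated at 0.953 to 0.973 (Pearson's r). Defining genes of conventional DCs were far above background on every array: Itgax, which encodes CD11c, at 9.74 to 10.97 on the log2 scale and Zbtb46 at 8.70 to 9.27. Ccl22, Ccr7 and Fscn1, known from DCs that migrate into lymph nodes, were higher in the arrays labelled spleen (log2 differences of 4.97, 1.47 and 1.82, Fscn1 by 3 of its 4 probe sets), the opposite of what the labels imply. Groups are for this reason named by label throughout, and a positive difference means higher in the arrays labelled spleen. The level of bacterial poly-A control transcripts differed too, with mean log2 intensities of 9.02, 8.41 and 9.06 on the arrays labelled spleen and 7.39, 7.80 and 7.96 on the arrays labelled lymph node, and its part in the differences below was not tested.

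Cd3g, Cd3d and Cd3e stand next to each other among the protein-coding genes of the RefSeq assembly GRCm38.p6, on chromosome 9. Cd3g and Cd3d are read in opposite directions from starts 1355 bases apart, and the start of Cd3e lies 27825 bases from that of Cd3d. The promoter sequences of these 3 neighbours are shown because the genes code for partner chains and were measured side by side here. Each runs from 250 bases before to 50 bases after the start in RefSeq, 5′ to 3′ on the gene's strand: Cd3g at chr9:44980382-44980681 (minus strand), Cd3d at chr9:44981536-44981835 (plus strand) and Cd3e at chr9:45009562-45009861 (minus strand). Capitals mark matches, on either strand, to short motifs of lymphocyte factors. The core bound by ETS factors was searched as AGGAAG. An E-box, bound by E proteins, was searched as CACCTG. For factors of the TCF and LEF family the letters searched were CTTTGA. For GATA factors the letters searched were AGATAA.
Cd3g: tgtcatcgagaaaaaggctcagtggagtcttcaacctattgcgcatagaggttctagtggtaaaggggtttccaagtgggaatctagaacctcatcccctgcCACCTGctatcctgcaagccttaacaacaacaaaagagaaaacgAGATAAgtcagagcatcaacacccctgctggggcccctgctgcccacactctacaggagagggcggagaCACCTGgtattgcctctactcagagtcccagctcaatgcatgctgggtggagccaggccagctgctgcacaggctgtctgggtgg
Cd3d: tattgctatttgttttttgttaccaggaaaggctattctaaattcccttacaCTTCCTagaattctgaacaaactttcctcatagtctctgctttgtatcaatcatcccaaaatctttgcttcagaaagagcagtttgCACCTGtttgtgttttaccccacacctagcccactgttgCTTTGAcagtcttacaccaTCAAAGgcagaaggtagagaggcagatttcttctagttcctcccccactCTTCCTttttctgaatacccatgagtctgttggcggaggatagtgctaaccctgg
Cd3e: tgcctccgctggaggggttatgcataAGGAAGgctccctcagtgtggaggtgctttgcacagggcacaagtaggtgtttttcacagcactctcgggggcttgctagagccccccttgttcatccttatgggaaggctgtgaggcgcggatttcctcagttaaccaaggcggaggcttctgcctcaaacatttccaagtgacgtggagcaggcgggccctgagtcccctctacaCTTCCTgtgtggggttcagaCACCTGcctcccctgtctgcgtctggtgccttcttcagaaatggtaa

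All 3 promoters held the E-box, which 20.2% of the 32851 promoters of the table also held. The ETS core was found in those of Cd3d and Cd3e with 2 matches each, against 35.4% of all promoters. Cd3d also held 2 matches of the TCF/LEF core (16% of all promoters) and Cd3g 1 match of the GATA site (11.2%). The matches did not overlap each other, and neither the RUNX core, searched as TGTGGT, nor a TATA box, searched in its form TATAAA, was among the letters of these 3 windows. These matches describe the letters only. Promoters of 6 of the 8 measured genes were in the table, and those of Cd28 and Cd2 were not used here.

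Of the 8 measured genes only Cd28 passed the test, with a level 16.8-fold higher on arrays labelled spleen than on arrays labelled lymph node. The test was limma's moderated test over all 12393 genes at a Benjamini-Hochberg adjusted p of 0.05, which 3.4% of all genes passed, 2.03% as higher and 1.37% as lower. At an unadjusted p under 0.05 there were 3 of the 8 genes, Cd28, Cd2 and Trat1, beside 19% of all genes. By sign, 7 of the 8 were higher and 1, Cd5, was lower, with a median log2 difference of 0.88, beside -0.0053 over all genes. The groups did not overlap for Cd28 and Trat1, both higher, beside 24.5% of all genes whose groups did not overlap (11.8% higher and 12.7% lower). The groups overlapped for the CD3 chains, Lat, Cd2 and Cd5.

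**Figure D1:**
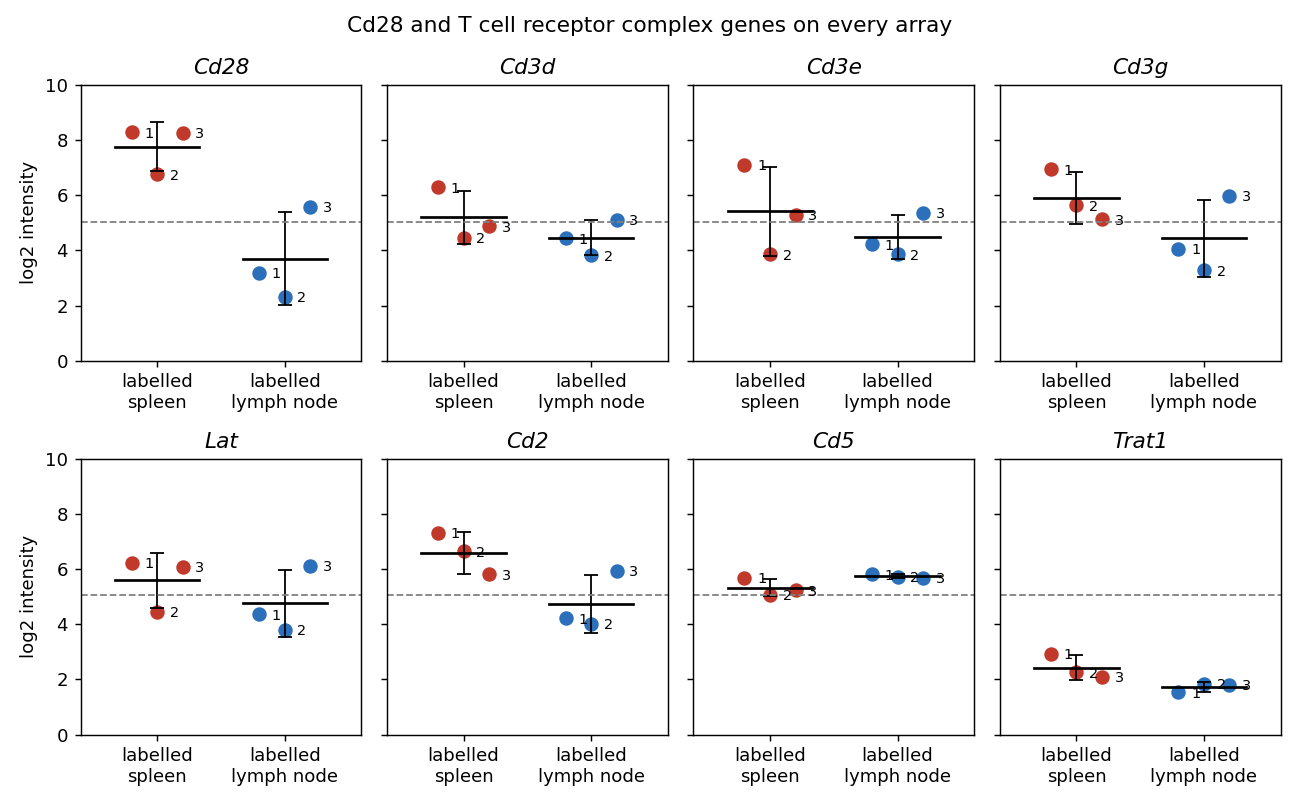
Log2 intensity of the 8 genes on each array (points, numbered by array), for arrays labelled spleen (left, red) and labelled lymph node (right, blue). Black lines are group means, error bars the SD over 3 arrays, and the dashed line the background cut of 5.05. Cd28 is the gene whose 3 red points lie farthest above its blue ones; for the CD3 chains, Lat and Cd2 the spread within each group covers much of the difference.

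Background was read from 28 measured genes of unrelated tissues, such as liver and testis, whose log2 levels averaged over 6 arrays had a median of 4.03 and a 75th percentile of 5.05. With 5.05 as the cut, 7 of the 8 genes had a mean near background in the arrays labelled lymph node, Cd5 being the exception. In the arrays labelled spleen 1 gene, Trat1, had such a mean. The means hide single arrays. Cd28, the CD3 chains, Lat and Cd2 were under the cut on lymph node arrays 1 and 2 and above it on array 3. Cd3d was also under it on 2 of the 3 arrays labelled spleen, and Cd3e and Lat on 1 each. Probe sets differ in their own background, so the cut is a guide. With a cut at 4 the number of genes with a mean near background was 2, Cd28 and Trat1, in the arrays labelled lymph node.

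Cd28 had log2 intensities of 8.29, 6.76 and 8.26 on the arrays labelled spleen, against 3.19, 2.32 and 5.58 on the arrays labelled lymph node. All 3 arrays labelled spleen were above the cut, while the arrays labelled lymph node numbered 1 and 2 lay under it and array 3 lay above it. The means were 7.77 ± 0.87 in the arrays labelled spleen and 3.70 ± 1.69 in the arrays labelled lymph node (SD, n = 3 each), a log2 difference of 4.07 ± 0.80 (SE, limma adjusted p = 0.0401). It ranked as number 7 of the 12393 genes by the size of the difference towards spleen, but number 326 by p. Because the lower group was close to background, the size of the fold is uncertain.

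A second probe set of Cd28 gave the same order of the groups. It lay at 7.45, 5.03 and 7.14 on the arrays labelled spleen and at 3.29, 3.07 and 3.90 on the arrays labelled lymph node. The difference was 3.12 ± 0.59 (SE, limma adjusted p = 0.0400 over all probe sets). Both probe sets put spleen array 2 lowest among the arrays labelled spleen and array 3 highest among the arrays labelled lymph node. The call on Cd28 rested on few arrays. It was lost without spleen array 1 (3.81, limma adjusted p = 0.123), spleen array 3 (3.83, 0.0763), lymph node array 1 (3.82, 0.161) or lymph node array 2 (3.39, 0.137), and held in the other 2 fits with 1 array left out.

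Next came the signalling chains of the receptor. Cd3g, the gamma chain, lay at 6.95, 5.63 and 5.14 on the arrays labelled spleen and at 4.05, 3.28 and 5.97 on the arrays labelled lymph node. Lymph node array 3 was above spleen arrays 2 and 3, and the difference of 1.47 ± 0.71 (SE) did not pass (limma adjusted p = 0.317). Cd3e, the epsilon chain, lay at 7.10, 3.86 and 5.29 on the arrays labelled spleen and at 4.22, 3.86 and 5.36 on the arrays labelled lymph node. Spleen array 2 and lymph node array 2 had the same value, the lowest of the 6, and spleen array 1 stood 2.52 above the mean of spleen arrays 2 and 3. The difference was 0.93 ± 0.76 (SE, limma adjusted p = 0.581), and it was 0.093 without spleen array 1. Cd3d, the delta chain, lay at 6.29, 4.46 and 4.88 on the arrays labelled spleen and at 4.45, 3.83 and 5.12 on the arrays labelled lymph node. Apart from spleen array 1 the values of Cd3d were interleaved, and its difference was 0.74 ± 0.50 (SE, limma adjusted p = 0.486; 0.21 without spleen array 1). The intervals of the 3 chains, from -0.83 at the lowest to 3.12 at the highest bound (95%), each included 0.

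The zeta chain gene Cd247, a gene outside the 9, had 4 probe sets that differed among themselves. Its brightest lay at 8.12, 7.90 and 8.01 on the arrays labelled spleen and at 8.07, 8.07 and 8.17 on the arrays labelled lymph node (limma adjusted p = 0.803). Another averaged 5.11 ± 1.06 in the arrays labelled spleen and 4.64 ± 0.78 in the arrays labelled lymph node (SD, n = 3 each). On it, as on the brightest, spleen array 1 and lymph node array 3 were highest in their groups, as for Cd3g. The others were highest on spleen array 2 (5.42) or spleen array 3 (4.54), and on lymph node array 3 (5.68 and 4.19).

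The adaptor gene Lat lay at 6.24, 4.45 and 6.07 on the arrays labelled spleen and at 4.36, 3.81 and 6.13 on the arrays labelled lymph node. Lymph node array 3 lay between the higher arrays labelled spleen, and the difference of 0.82 ± 0.66 (SE) did not pass (limma adjusted p = 0.578). Trat1 lay at 2.93, 2.26 and 2.10 on the arrays labelled spleen and at 1.54, 1.85 and 1.81 on the arrays labelled lymph node. Its groups did not overlap, but all 6 values were under 4, close to background, and the difference of 0.70 ± 0.24 (SE) did not pass (limma adjusted p = 0.164).

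Among the surface receptors, Cd2 lay at 7.32, 6.65 and 5.81 on the arrays labelled spleen and at 4.22, 4.02 and 5.94 on the arrays labelled lymph node. Lymph node array 3 exceeded spleen array 3, and every other array labelled spleen was above every array labelled lymph node. The difference of 1.87 ± 0.56 (SE) did not pass over all genes (limma adjusted p = 0.118), and without lymph node array 3 it was 2.47 and passed (limma adjusted p = 0.0394). Cd5 lay at 5.68, 5.07 and 5.23 on the arrays labelled spleen and at 5.82, 5.73 and 5.68 on the arrays labelled lymph node. It was the 1 gene with a negative difference, -0.41 ± 0.20 (SE, limma adjusted p = 0.311), and the one that varied least between arrays labelled lymph node (SD 0.071).

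**Figure D2:**
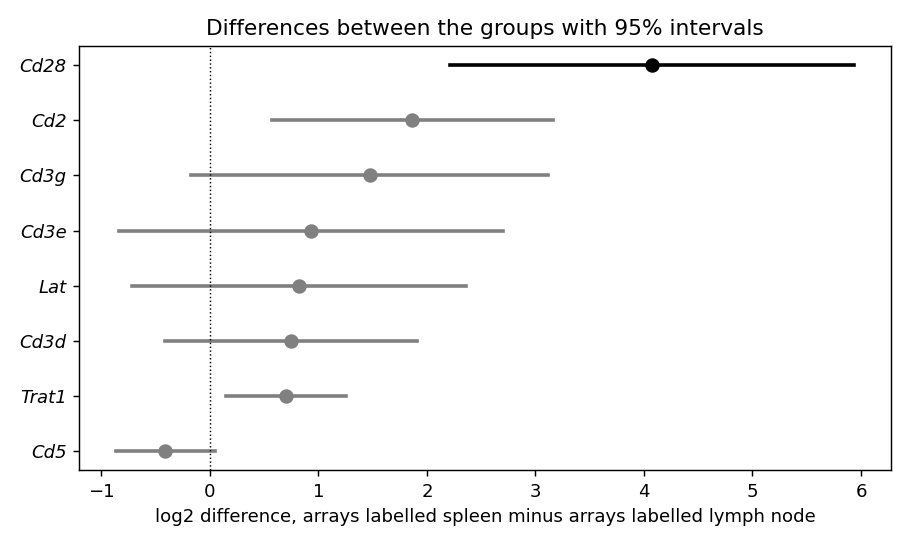
Log2 difference between the groups (points, arrays labelled spleen minus arrays labelled lymph node) with 95% intervals from limma, for the 8 genes from the largest difference down. Cd28, in black, is the gene past the threshold at 4.07; the other 7, in grey, run from 1.87 for Cd2 to -0.41 for Cd5.

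The arrays differed in a common way across the genes. Spleen array 1 was the highest of the arrays labelled spleen for all 8 genes and the highest of all 6 arrays for 7. Lymph node array 3 was the highest of the arrays labelled lymph node for 6 genes, Cd5 and Trat1 being the exceptions. It exceeded the mean of lymph node arrays 1 and 2 by 2.83 for Cd28, 2.31 for Cd3g, 2.04 for Lat, 1.82 for Cd2, 1.32 for Cd3e and 0.98 for Cd3d. Spleen array 3 lay 0.034 under spleen array 1 for Cd28 and 1.40 to 1.81 under it for the CD3 chains. The change of Cd28 between the groups exceeded that of each of the 7 other genes, by 2.21 for Cd2 up to 4.48 for Cd5. The size of these gaps is uncertain, since each probe set has its own lower limit. For 7 of the 8 genes the mean of the arrays labelled lymph node was near background. With an offset of 16 added to every intensity the gaps were 1.51 for Cd2 up to 3.17 for Cd5. In all 7 the within-array differences of the groups did not overlap. All 7 comparisons use the same Cd28 values, so they are not independent of each other. The exact permutation p was 0.1 for each of the 7 pairs, also adjusted over them, the smallest that 3 against 3 arrays allow.

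**Figure D3:**
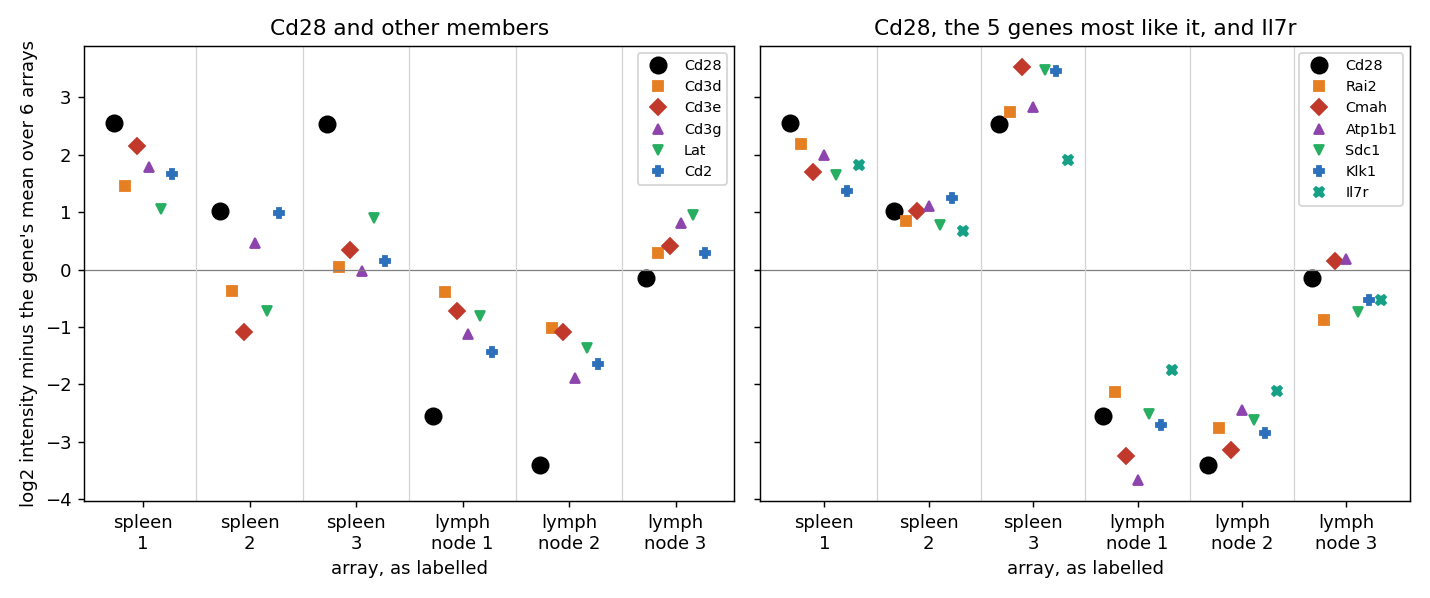
Log2 intensity minus each gene's mean over the 6 arrays, array by array, for Cd28 with the CD3 chains, Lat and Cd2 (left) and for Cd28 with the 5 genes most like it and Il7r (right). On spleen array 3 Cd28 stands at the height of spleen array 1, above the CD3 chains. The 5 nearest genes of the right panel were picked for their likeness to Cd28 over these arrays, so their closeness to it is set by that choice.

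The genes most like Cd28 were sought by the root mean square difference of mean-centred log2 values over the 6 arrays. The 5 nearest were Rai2 (0.47), Cmah (0.63), Atp1b1 (0.68), Sdc1 (0.68) and Klk1 (0.68). Rai2 lay at 6.49, 5.15 and 7.04 on the arrays labelled spleen and at 2.17, 1.54 and 3.42 on the arrays labelled lymph node. Klk1 was included in the marker list of plasmacytoid DCs, Sdc1 encodes the syndecan of plasma cells, Cmah an enzyme of sialic acid synthesis and Atp1b1 a subunit of the sodium pump. Rai2, Sdc1 and Klk1 passed the threshold and Cmah and Atp1b1 did not (limma adjusted p = 0.0637 and 0.0602). Large differences of these 5 genes follow from their choice by likeness to Cd28 over the same arrays. Il7r, the interleukin-7 receptor chain of T cells and innate lymphoid cells, came at place 8 with 0.77. The nearest of the other genes of the complex, Cd2, came at place 97 with 1.35, and Cd3g at place 142 with 1.46. This distance also counts the size of the change between the groups. Genes that change less than Cd28 therefore rank farther away, and their places do not compare the array patterns alone.

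Other genes of the pathway were read from fixed lists. Beside the counts that follow, 3.4% of all genes passed, 2.03% as higher and 1.37% as lower. Of the further receptor chains and coreceptors, 4 of 11 were measured, and 1 was higher and 0 lower. That gene was Cd8b1, the CD8 beta chain, which lay at 6.85, 6.41 and 8.65 on the arrays labelled spleen and at 2.87, 3.32 and 5.21 on the arrays labelled lymph node (3.51 ± 0.73 SE, limma adjusted p = 0.0461). Its neighbour Cd8a, the CD8 alpha chain, which a subset of DCs carries, differed by 1.57 ± 0.40 (SE, limma adjusted p = 0.0821). The other probe set of Cd8a differed by 1.07 ± 0.55 (SE), with overlap (limma adjusted p = 0.354 over all probe sets). Cd4 differed by -0.53 ± 0.33 (SE, limma adjusted p = 0.442), and by -0.78 ± 0.37 (SE) by its other probe set, which did not pass either. The antigen-binding receptor chains themselves were not analysed here.

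Of 22 genes of proximal receptor signalling 17 were measured, and 1 was higher, 1 lower and 15 did not pass, with a median difference of 0.27. Fyn, a Src-family kinase that acts beside LCK, was higher, with 9.24, 8.84 and 10.02 on the arrays labelled spleen and 7.47, 7.45 and 8.22 on the arrays labelled lymph node (1.65 ± 0.34 SE, limma adjusted p = 0.0454). Its other probe set differed by 1.16 ± 0.45 (SE), with overlap, and did not pass (limma adjusted p = 0.230 over all probe sets). Ptpn22, a phosphatase that restrains the pathway, was lower, at 8.24, 8.25 and 7.94 on the arrays labelled spleen and 8.87, 8.88 and 8.94 on the arrays labelled lymph node (-0.75 ± 0.16 SE, limma adjusted p = 0.0486). Narrow misses included the adaptor gene Lcp2 (-1.52 ± 0.33 SE, limma adjusted p = 0.0539) and Csk, the kinase that inhibits Src-family members (-1.34 ± 0.31 SE, limma adjusted p = 0.0599). Ptprc, which encodes CD45, differed by -0.43 and Vav1, an exchange factor, by -0.12, and neither passed. Zap70, the kinase that binds the phosphorylated CD3 chains, lay at 3.17 to 4.19 over the 6 arrays, under the background cut.

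Cd28 stands next to Ctla4, followed by Icos, in the RefSeq gene order, and the differences of these 3 genes of 1 family were not all of the same sign. Ctla4, the inhibitory counterpart of Cd28, lay at 6.73, 6.96 and 4.52 on the arrays labelled spleen and at 4.34, 4.88 and 5.10 on the arrays labelled lymph node, with overlap (1.30 ± 0.60 SE, limma adjusted p = 0.294). Icos, the inducible costimulator, lay at 5.42, 5.65 and 6.28 on the arrays labelled spleen and at 6.78, 6.46 and 7.37 on the arrays labelled lymph node (-1.09 ± 0.30 SE, limma adjusted p = 0.0977; -0.42 by its other probe set). Of the 3 measured receptors of the family other than Cd28, which include Pdcd1, 0 passed in limma. An unadjusted p under 0.05 was found for 1, Icos, beside 19% of all genes. Of 7 ligands 1 was lower and 0 higher. This was Icosl, the ligand of ICOS, with 9.39, 9.49 and 9.29 on the arrays labelled spleen and 10.35, 10.42 and 10.61 on the arrays labelled lymph node (-1.07 ± 0.16 SE, limma adjusted p = 0.0170). The ligands of CD28 itself did not pass: Cd86 differed by 0.085 ± 0.26 (SE, limma adjusted p = 0.908) and Cd80 by -0.73 ± 0.30 (SE, limma adjusted p = 0.247). Cd274, which encodes PD-L1, differed by -0.47 ± 0.34 (SE, limma adjusted p = 0.519). Cd48, the partner of CD2, differed by -0.42 ± 0.16 (SE, limma adjusted p = 0.217).

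Of 13 measured T cell transcription factors and surface markers 1 was higher and 0 lower, with a median of 0.23. Il7r was that gene, at 10.81, 9.66 and 10.90 on the arrays labelled spleen and 7.25, 6.88 and 8.47 on the arrays labelled lymph node (2.93 ± 0.47 SE, limma adjusted p = 0.0232). It was lowest on spleen array 2 within its group and highest on lymph node array 3 within the other, like Cd28. Ets1, a transcription factor of lymphocytes, differed by 2.15 ± 0.62 (SE, limma adjusted p = 0.111) and the surface gene Ms4a4b by 1.92 ± 0.56 (SE, limma adjusted p = 0.114). By its other probe sets Ets1 differed by 2.13, 1.14 and 1.05, and none of these passed. Satb1, a chromatin organiser of T cells, differed by -0.73 ± 0.26 (SE, limma adjusted p = 0.179) and Klf2 by -0.45 ± 0.65 (SE, limma adjusted p = 0.776).

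Marker lists of the other cell types that such a sort could hold were read next, and in bulk arrays fewer cells of a type and less RNA per cell cannot be told apart. Of 14 measured T cell markers, which include the 8 genes above, 2 were higher (Cd28 and Il7r) and 0 lower, with a median of 0.78. Their summed intensity was 1541 to 3166 on the arrays labelled spleen and 585 to 1107 on the arrays labelled lymph node. Il7r alone carried 1795, 810.4 and 1912 of these units on the arrays labelled spleen and 152.6, 117.6 and 353.9 on the arrays labelled lymph node. Without it the sums overlapped, at 730 to 1371 on the arrays labelled spleen and 467 to 753 on the arrays labelled lymph node. Of these 14 genes 4 lay at or under the background cut on all 6 arrays, namely Trat1, Zap70, Cd6 and the T lineage factor gene Bcl11b (3.17 to 3.68), and none of the markers was listed at 0.

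Of 10 measured NK cell markers 0 passed in limma. An unadjusted p under 0.05 was found for 2, beside 19% of all genes. A positive difference was found for 8, beside 49.3% of all genes, and the median was 1.01. Their sum was 581 to 2008 on the arrays labelled spleen and 424 to 1054 on the arrays labelled lymph node, with spleen array 1 and lymph node array 3 highest in their groups. Gzma, a granzyme of cytotoxic cells, lay at 9.87, 6.23 and 4.41 on the arrays labelled spleen and at 6.25, 5.91 and 8.54 on the arrays labelled lymph node. For Gzma and Klrk1 the same arrays were highest as for the CD3 chains. Prf1 and Klrd1 were instead highest on spleen array 3 among the arrays labelled spleen, at 7.79 and 7.98. Gzma alone carried 937.9 units of the NK cell marker sum on spleen array 1.

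Plasmacytoid DC markers had 3 of 11 measured genes higher (Ccr9, Klk1 and Blnk) and 0 lower, with a median of 1.55. Their sum was 1971 to 6689 on the arrays labelled spleen, highest on array 3, and 779 to 1800 on the arrays labelled lymph node, again highest on array 3. Without these 3 genes the groups overlapped, at 1402 to 4591 on the arrays labelled spleen and 708 to 1580 on the arrays labelled lymph node. The overlap came from lymph node array 3, at 1580 against 1402 on spleen array 2. By single genes all 11 had a positive difference, beside 49.3% of all genes. The groups did not overlap for 7 of the 11, all higher, beside 11.8% of all genes. Innate lymphoid markers summed to 1953 to 2741 on the arrays labelled spleen and 876 to 1353 on the arrays labelled lymph node, with 1 of 6 genes higher, Il7r, which is also in the T cell list, and 0 lower. Without Il7r these sums overlapped too, at 695 to 1142 on the arrays labelled spleen and 723 to 999 on the arrays labelled lymph node. Of 9 B cell markers 0 were higher and 2, Cd22 and Cr2, were lower, and the sums were 217 to 272 on the arrays labelled spleen and 427 to 591 on the arrays labelled lymph node. Without Cd22 and Cr2 they were 132 to 188 on the arrays labelled spleen and 121 to 190 on the arrays labelled lymph node, and overlapped. In this list 6 of the 9 genes were near background in both groups and 3 had a positive difference. Conventional DC markers had 3 of 13 genes lower (Itgax, Sirpa and Ciita) and 0 higher. Their sum was 13533 to 20466 on the arrays labelled spleen and 24359 to 25989 on the arrays labelled lymph node. The groups stayed apart without the 3 called genes, at 11974 to 18444 on the arrays labelled spleen and 20400.5 to 22361 on the arrays labelled lymph node. H2-Ab1, H2-Aa and Cd74 carried most of these units, so the sums say little of the other markers. H2-Ab1 alone carried 3625 to 5324 units on the arrays labelled spleen and 6021 to 6198 on the arrays labelled lymph node. By single genes the groups did not overlap for 11 lower and 1 higher, Irf8 (1.67), beside 12.7% and 11.8% of all genes. The part of these other cell types in the differences of Cd28 and the CD3 chains was not tested.

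**Figure D4:**
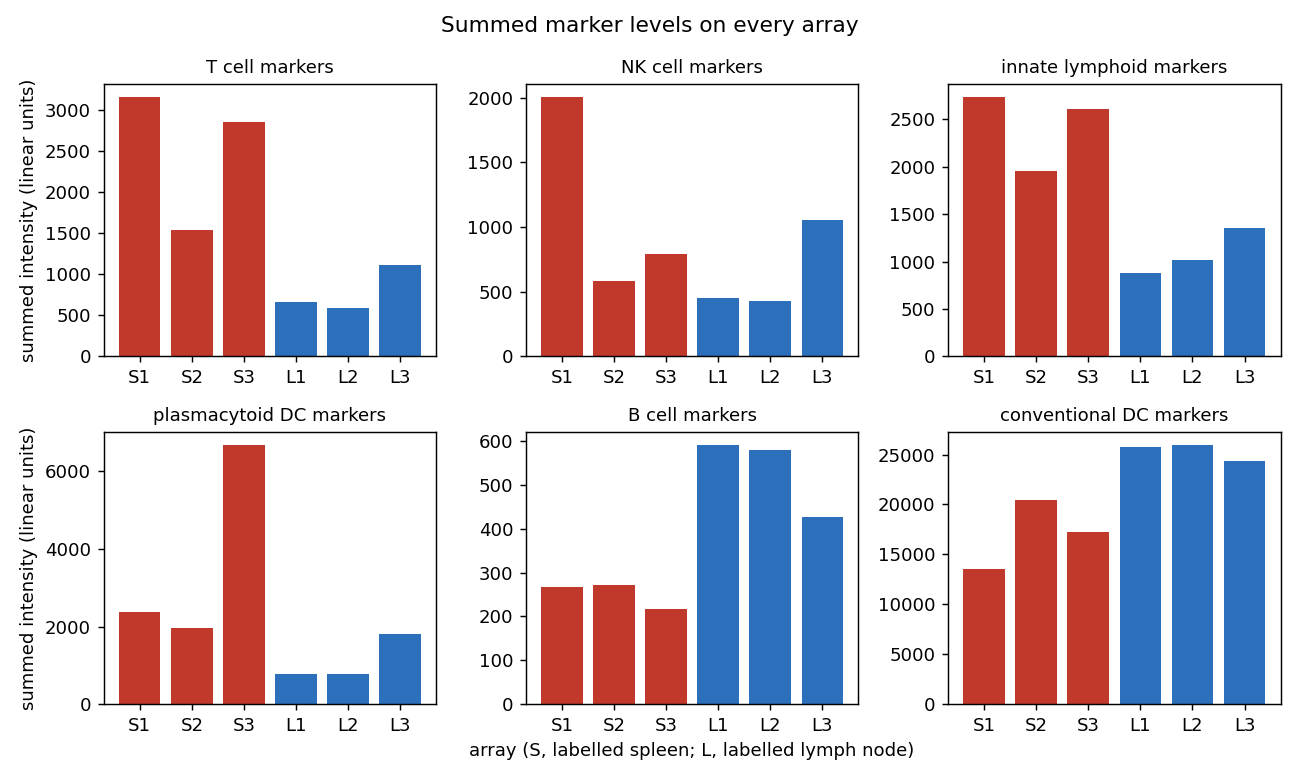
Summed linear intensity of 6 cell type marker lists on each array (bars), arrays labelled spleen in red and arrays labelled lymph node in blue. T cell and NK cell sums peak on spleen array 1, the plasmacytoid DC sum on spleen array 3, and lymph node array 3 has the highest of the blue bars in the T cell, NK cell, innate lymphoid and plasmacytoid DC panels. Il7r is part of both the T cell and the innate lymphoid sums, and without it the red and blue bars of each would overlap.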

How the data were processed

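Gene expression was measured on 6 Affymetrix arrays, 3 per organ, grouped by sample title. The deposited values are probe set intensity summaries on a linear scale; RMA and limma are the tools that the submitters' processing notes name, and their versions and settings are not given in the sources used here. The deposited intensity was transformed to log2 here, and values near the bottom of the scale carry little information. Of 22690 probe sets 20380 named 1 gene symbol, 691 several and 1619 none, and 64 were controls. Each of 12393 genes was represented by its one-symbol probe set with the highest mean, and symbols were checked against RefSeq (GRCm38.p6, names only). Groups were compared in R 4.3.3 with limma 3.58.1 (lmFit, eBayes), two-sided, adjusted by Benjamini-Hochberg over all genes with a threshold of 0.05; 421 genes passed (251 higher, 170 lower; 3.4%). The functions were tested on simulated data. No depth applies to arrays, and 3 arrays per group limit the precision.

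The genes and lists were chosen with earlier results of these data known. The text names all 9 genes, every list member past the threshold, up to 4 others per list with the highest mean, and the 5 genes nearest to Cd28. Marker sums without called genes, and the gaps between Cd28 and the other genes with the offset, were added after the data were seen. Zap70, Cd6 and Bcl11b, as markers under the background cut, were named after their values were seen. Replicate numbers were not used to pair the arrays in the main fit. Deviations of same-numbered arrays correlated at 0.022, 0.24 and 0.16, which does not settle whether the numbers mark pairs. Alternatives were centring on medians, renewed quantile normalization, leaving out genes below the median level, a trended and robust eBayes, array weights, the replicate number as a block, arrays left out, averaging all probe sets, an offset of 16, a threshold of 0.01 and a 2-fold minimum.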

Additional observations from a re-analysis of the deposited data

How the results depend on the processing

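For Cd28 the direction held in all 16 alternatives, with log2 differences from 2.87 to 5.01. The call held in 10 of them (limma adjusted p of 0.0101 to 0.161 over all). The call was lost with an offset of 16 (2.87, adjusted p = 0.0616) and at a threshold of 0.01 (4.07, 0.0401). With 1 array left out the difference was 3.39 to 5.01 and passed in 2 of 6 fits. The number of the 8 genes past the threshold was 1; it was 0 with the offset and at the threshold of 0.01, and 2 with array weights and without both arrays numbered 3, where Cd2 joined Cd28 (2.25 and 2.87). With 1 array left out it was 0 to 2. Cd3d, Cd3e, Cd3g, Lat, Cd5 and Trat1 kept their sign and passed in 0 alternatives of limma. Over all genes the 421 calls became 764 with array weights, 63 at the threshold of 0.01 and 47 to 475 with 1 array left out (56 without lymph node array 1, 47 without lymph node array 2, 130 without spleen array 1). The replicate block gave 519 calls and a Cd28 difference of 4.07 (limma adjusted p = 0.0101); the deviations of spleen arrays 2 and 3 correlated best with lymph node arrays of their own number (0.24 and 0.16), and those of spleen array 1 with lymph node array 3 (0.085 against 0.022 for its own number). The cause of these shifts was not tested. By the cut of 5.05, signal near background limits 7 of the 8 genes, all but Cd5, in the arrays labelled lymph node. It also limits Trat1 in the arrays labelled spleen.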
